A study of Mus musculus with 6 samples.

Results

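The genes described here are 43 genes of the response to low oxygen and of glycolysis. They were measured in stimulated primary cultures labelled osteocytes, the cells embedded in bone matrix. They were selected by name, because Ero1a, a gene induced by low oxygen, was among the strongest lower genes in the comparison of genotypes below. All 43 were found among the 56748 genes of the count table, and all 43 had enough counts to be among the 17146 genes tested. RNA was sequenced from 6 cultures, 3 labelled WT (C57BL/6) and 3 labelled cKO, which carried Gsdmd fl/fl; DMP1-Cre. In the latter, critical exons of Gsdmd, the gene of the pore-forming protein gasdermin D, are flanked by loxP sites, and the Dmp1 promoter, active in osteocytes, drives the Cre recombinase. The study's methods isolate the cells from long bones of 7-week-old mice and culture them together with the digested bone pieces for 7 days. Both groups were stimulated in the same way, for 3 h with bacterial lipopolysaccharide (10 ng/mL) and for another 3 h with aluminum hydroxide (20 µg/mL), an activator of the inflammasome, and no unstimulated libraries were analysed here. Nothing in the labels says that the 3 libraries of a group came from separate animals, so p-values measure only the spread between these libraries, which may be technical.

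Cells sense oxygen through prolyl hydroxylases of the EGLN family, which mark the alpha subunits of hypoxia-inducible factor (HIF) for capture by the VHL protein and degradation. When oxygen or the hydroxylases' cofactors run short, the subunits accumulate, pair with ARNT and bind short DNA motifs near their target genes, among them glucose transporters, most glycolytic enzymes, VEGFA and enzymes of collagen folding. In bone, HIF is known for coupling blood vessel growth to bone formation, and bone-forming cells use glycolysis for much of their energy. HIF alpha subunits are controlled mainly as proteins, which RNA sequencing does not measure.

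The libraries held 39566835 to 49734046 counts on genes. Gsdmd itself had 13.5, 14.1 and 14.1 counts per 1000000 (CPM) in the WT libraries and 21.0, 23.6 and 23.0 CPM in those labelled cKO, a log2 fold change of 0.69 ± 0.08 (SE), so the targeted gene was higher in the libraries labelled cKO. CPM were scaled by edgeR's TMM method, and fold changes are given throughout as log2 of cKO over WT ± the standard error (SE) of the fit. Counts over the whole gene do not separate the floxed exons from the rest, and every direction below rests on the labels, with cKO standing for the libraries labelled so. Summed markers of macrophages lay at 1276 to 1436 CPM in WT and 7142 to 7471 CPM in the libraries labelled cKO, and all 15 tested of 16 rose. Summed osteoblast markers went from 13605 to 15441 CPM down to 9080 to 9297 CPM, although Ibsp and Alpl rose. The other 4 of 6 tested fell. Those of fibroblasts and stroma were 11089 to 11636 CPM in WT and 11820 to 12602 CPM in cKO. There 4 of 8 tested rose, 2 (Dcn and Thy1) fell and 2 did not pass. Summed chondrocyte markers were 1971 to 2184 CPM in WT and 2945 to 3133 CPM in cKO. In that list 4 of 5 tested rose and Col2a1 fell. Mean Comp went from 567 to 2117 CPM and mean Col2a1 from 1428 to 798 CPM. Of the listed osteocyte markers, Sost and Dkk1 had 0 counts in all 6 libraries and Dmp1 and Mepe had at most 6. Fgf23 had 14, 34 and 8 counts in WT and 6, 0 and 0 in cKO, and Phex had 2 to 22. The osteocyte sum of 257 to 270 CPM in WT and 211 to 220 CPM in cKO came mostly from Pdpn. The name osteocyte thus rests on the labels and the study's methods, not on these markers. Y-linked transcripts summed to 198 to 215 CPM in WT and 0 in cKO, and Xist reached 1127 to 1159 CPM in cKO and at most 0.0889 CPM in WT. The study's methods state that mice were matched for sex, which these values go against. Genotype and the sex-linked difference therefore cannot be told apart. In bulk RNA, fewer cells of a type and less RNA per cell cannot be told apart either, and the part of cell composition in the values below was not tested.

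Most of the 43 genes were lower in the libraries labelled cKO. In edgeR's quasi-likelihood fit over all 17146 genes, 34 fell and 4 rose at a Benjamini-Hochberg adjusted p below 0.05, and 5 did not pass. Of all tested genes 19.2% fell and 20.1% rose by the same rule, or 4294 genes and 2799 genes with upper quartile scaling in place of 3285 and 3445. The members were chosen on this comparison, so these counts are a description and carry no test. The 34 changes were mostly moderate. A log2 fold change between -0.5 and 0 was found for 22 of the genes that fell, one between -1 and -0.5 for 9, and 3 fell by at least 1, namely Ero1a, Slc2a3 and Gapdh. No member rose by that much. Over all tested genes 4.64% fell and 6.56% rose by at least 1. Every cKO library was below every WT library for 35 members and above for 4, against 23.9% and 25.3% of all tested genes. The median log2 fold change of the members was -0.38 with quartiles of -0.55 and -0.26, and it was also -0.38 without Ero1a. The median of all tested genes was 0.0077. Summed over the 43 genes, the 3 WT libraries gave 25055 ± 456 CPM (SD). The 3 cKO libraries gave 19674 ± 48.2 CPM (SD), or 78.5% of WT.

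**Figure D1:**
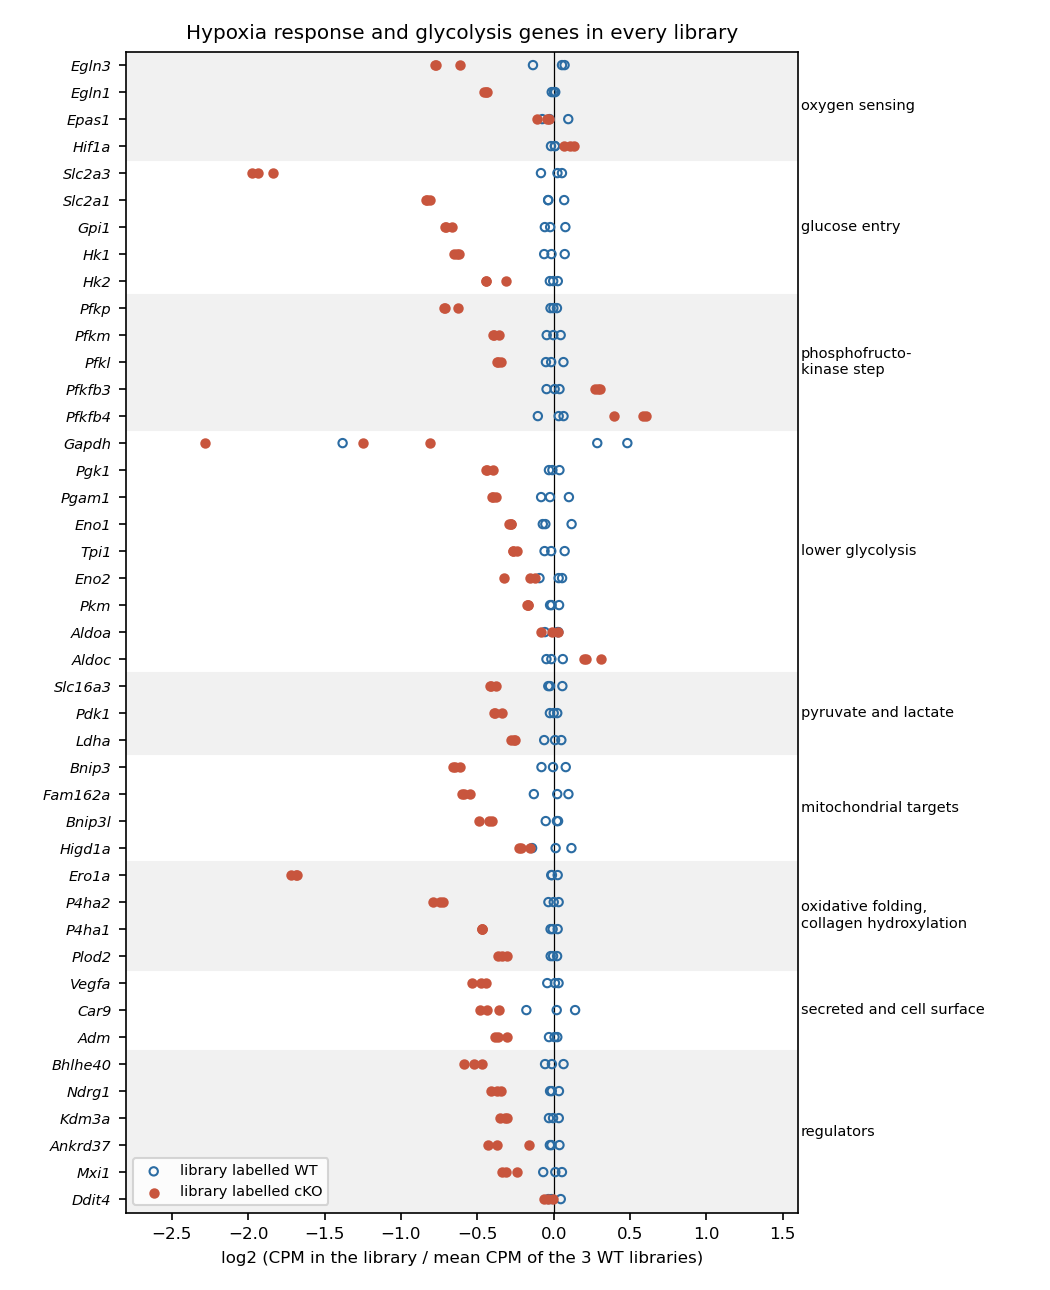
Each row is a gene, grouped by role, and each point a library, placed on the x axis at the log2 ratio of its CPM to the mean CPM of the 3 WT libraries. Open points are libraries labelled WT and filled points libraries labelled cKO, and for 35 of the 43 genes all filled points lie left of all open points, while Gapdh spreads widely in both groups.

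**Figure D2:**
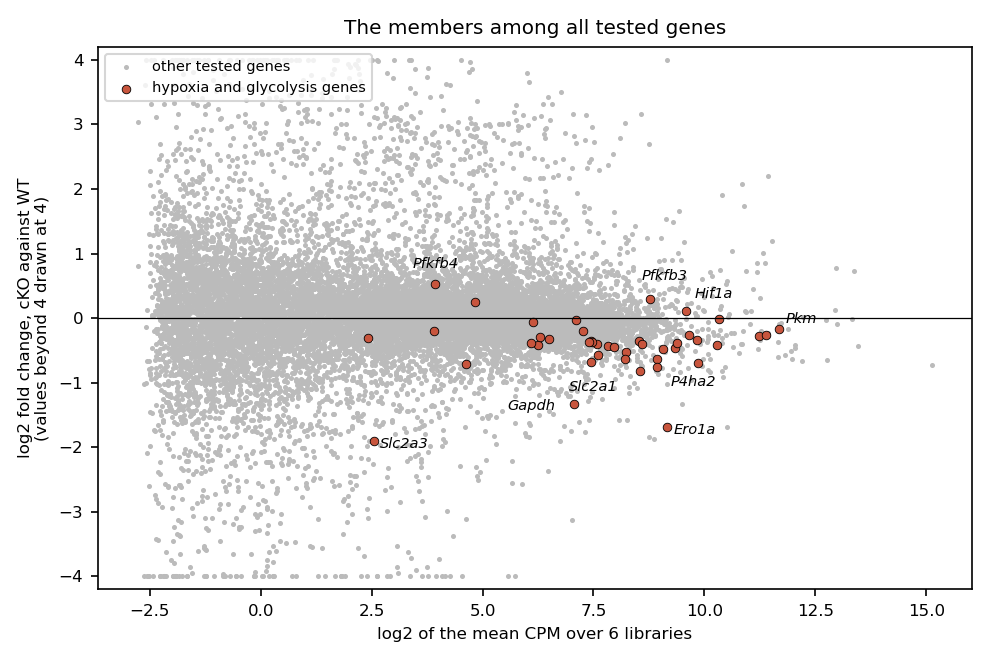
The y axis gives the log2 fold change of cKO against WT and the x axis the log2 of the mean CPM over 6 libraries, with 1 grey point for each tested gene and the 43 members outlined. Of the members, 33 have a mean of at least 100 CPM in WT, and the members' points lie mostly below 0, with a median of -0.38.

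The gene behind the selection, Ero1a (ENSMUSG00000021831, mm39 chr14:45520544-45556228, minus strand), encodes the oxidase of the endoplasmic reticulum (ER) that recharges protein disulfide isomerase so that secreted proteins can form disulfide bonds. Its level was 866, 892 and 869 CPM in the WT libraries and 272, 266 and 273 CPM in the libraries labelled cKO. The groups were far apart, with 30.9% of the WT mean left, and replicates lay within a narrow band in each. The log2 fold change was -1.69 ± 0.04, which placed Ero1a at rank 5 by p-value and at rank 433 by size among the genes with a lower value.

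The other members of this role hydroxylate collagen in the ER, and all of them fell. P4ha1 and P4ha2 are alternative catalytic subunits of the prolyl hydroxylase that stabilises the collagen triple helix, and their log2 fold changes were -0.47 ± 0.03 and -0.75 ± 0.04. P4ha2 (ENSMUSG00000018906, mm39 chr11:53990921-54022491, plus strand) went from 600.1, 615 and 629 CPM to 355, 366 and 372 CPM, with no overlap between the groups. Plod2, a lysyl hydroxylase that shapes collagen cross-links, had the highest level per kilobase among the 3 listed collagen hydroxylases and was measured at 1023, 1042 and 1012 CPM in WT and 799, 812 and 829 CPM in cKO. Its log2 fold change was -0.34 ± 0.03, and the groups did not overlap.

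Ero1a has a close relative, Ero1b, which moved the other way. Ero1b rose from 8.22, 9.89 and 8.22 CPM to 16.8, 18.4 and 17.4 CPM, a log2 fold change of 1.00 ± 0.10. Per kilobase of gene length the sum of both oxidases went from 167 ± 2.82 to 53.8 ± 0.620 CPM per kilobase (SD, n = 3), and the share of Ero1b went from 0.789% to 4.90%. The rise of Ero1b thus covered a small part of the Ero1a difference on the per-length scale. Among the partners of oxidative folding, 7 of 12 tested genes fell (58.3%) and 1 rose (8.33%), beside 19.2% and 20.1% of all tested genes. P4hb, the protein disulfide isomerase that also serves as the second subunit of the collagen prolyl hydroxylase, had a log2 fold change of -0.54 ± 0.03. Txndc5, another disulfide isomerase of the ER, had -0.45 ± 0.04 and Pdia5 -0.66 ± 0.07. Of the partners of collagen modification, 5 of 11 fell (45.5%) and 3 rose (27.3%). The lysyl hydroxylase gene Plod1 had a log2 fold change of -0.52 ± 0.04 and Serpinh1, the collagen chaperone, -0.41 ± 0.04. P3h2, a prolyl 3-hydroxylase, had a log2 fold change of 1.39 ± 0.14 and P4ha3 0.53 ± 0.06, so the collagen hydroxylases did not move as a block.

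HIF binds DNA at a core that reads ACGTG or GCGTG. These letters were searched on both strands in the 250 bases before each transcription start of the RefSeq annotation of GRCm38.p6, where the palindrome CACGTG holds ACGTG on both strands and counts as 2. Windows were found for 37 of the 43 members, and 34 of the 37 genes (91.9%) held at least 1 match in at least 1 window. The same was true of 59.4% of the tested genes with a window and of 41.5% of all genes. Counted by window, 43 of the members' 55 windows (78.2%) and 38.6% of all windows held a match. The background was not matched for base composition or for windows per gene, and no enrichment was tested. Among the members, 27 of 29 that fell, 4 of 4 that rose and 3 of 4 that did not pass held a match. With so few members that rose and matches in nearly all, these counts cannot say whether the motif separates directions. Most members are textbook HIF targets. A match is only a run of letters, no match says only that these letters are not in the window, and binding was not measured. The windows of 5 members are given because they range from 5 matches to 0 and cover both directions. Fam162a, not shown, had the most matches of all members, 6. Bnip3 has 5, Ero1a 3, P4ha2, with the largest fall among the 3 listed collagen hydroxylases, 3, Gpi1, which fell, 0 and Pfkfb4, which rose, 1. Each is written 5′ to 3′ on the gene's strand, ends at the base before the start site, and has the matches on either strand in capitals. The windows lie at chr7:138909507-138909756 (minus strand) for Bnip3, chr14:45318573-45318822 (minus) for Ero1a, chr11:54100674-54100923 (plus) for P4ha2, chr7:34230337-34230586 (minus) for Gpi1 and chr9:108991652-108991901 (plus) for Pfkfb4, all in GRCm38.p6.
Bnip3: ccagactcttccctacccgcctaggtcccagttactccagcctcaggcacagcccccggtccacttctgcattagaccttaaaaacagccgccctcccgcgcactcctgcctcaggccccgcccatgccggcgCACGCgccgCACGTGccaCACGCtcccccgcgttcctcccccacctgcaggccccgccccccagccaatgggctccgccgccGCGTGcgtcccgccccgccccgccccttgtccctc
Ero1a: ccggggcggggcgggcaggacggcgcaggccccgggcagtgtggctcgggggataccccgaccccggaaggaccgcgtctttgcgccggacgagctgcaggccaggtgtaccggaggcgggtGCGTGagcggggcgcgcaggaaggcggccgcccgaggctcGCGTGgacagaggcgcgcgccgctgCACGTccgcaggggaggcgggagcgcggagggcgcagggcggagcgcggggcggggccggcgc
P4ha2: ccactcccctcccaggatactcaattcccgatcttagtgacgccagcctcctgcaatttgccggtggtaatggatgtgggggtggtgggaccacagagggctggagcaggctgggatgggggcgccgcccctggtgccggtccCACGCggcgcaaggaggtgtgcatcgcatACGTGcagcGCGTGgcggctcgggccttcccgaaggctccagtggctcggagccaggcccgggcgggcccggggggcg
Gpi1: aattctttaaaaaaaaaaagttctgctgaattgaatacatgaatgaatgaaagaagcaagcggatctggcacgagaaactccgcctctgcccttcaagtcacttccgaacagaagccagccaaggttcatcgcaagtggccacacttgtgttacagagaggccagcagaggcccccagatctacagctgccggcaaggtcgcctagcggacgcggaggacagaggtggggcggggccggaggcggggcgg
Pfkfb4: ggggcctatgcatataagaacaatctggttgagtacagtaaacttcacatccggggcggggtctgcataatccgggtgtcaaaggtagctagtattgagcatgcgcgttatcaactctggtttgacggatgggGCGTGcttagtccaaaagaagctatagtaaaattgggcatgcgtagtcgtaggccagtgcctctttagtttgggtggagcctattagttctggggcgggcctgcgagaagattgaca

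The oxygen sensors and the HIF subunits did not move together. Hif1a (ENSMUSG00000021109, mm39 chr12:73948149-73994304, plus strand), the broadly expressed alpha subunit, had 741, 740.2 and 727 CPM in WT and 794, 771 and 806 CPM in cKO. Every cKO library was above every WT library, but by little, with a log2 fold change of 0.10 ± 0.03, and the call was lost when WT replicate 1, WT replicate 2, cKO replicate 1 or cKO replicate 3 was left out (adjusted p of 0.0645 to 0.106 in edgeR). Epas1, which encodes the alpha subunit of HIF best known from blood vessels, had 77.3, 71.0 and 68.7 CPM in WT and 70.1, 67.1 and 70.8 CPM in cKO, and the groups overlapped, with a log2 fold change of -0.06 ± 0.05. Per kilobase, Hif1a made up 90.6% of the alpha subunit transcripts in WT and 91.5% in cKO. The prolyl hydroxylase genes Egln3 and Egln1, the 2 members of that family, are themselves HIF targets, and both fell. Egln3 had 31.9, 32.3 and 28.0 CPM in WT and 18.0, 20.1 and 18.1 CPM in cKO, without overlap, and a log2 fold change of -0.72 ± 0.08, and Egln1, the main hydroxylase of HIF, had -0.45 ± 0.04.

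Of 11 other tested components of the HIF pathway, 3 fell (27.3%) and 1 rose (9.09%), beside 19.2% and 20.1% of all tested genes, so the share that fell was near the background. Cited2, which competes with HIF for its coactivator, had a log2 fold change of -0.59 ± 0.04. Vhl, the recognition subunit of the ligase that removes HIF, had -0.40 ± 0.05, Bmal1, a clock factor related to ARNT, had -0.38 ± 0.07, and Rbx1, the ring subunit of the ligase, rose with 0.21 ± 0.05. Arnt, the partner of the alpha subunits, had a log2 fold change of -0.05 ± 0.05 and did not pass, and neither did Egln2, at 0.04 ± 0.06.

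**Figure D3:**
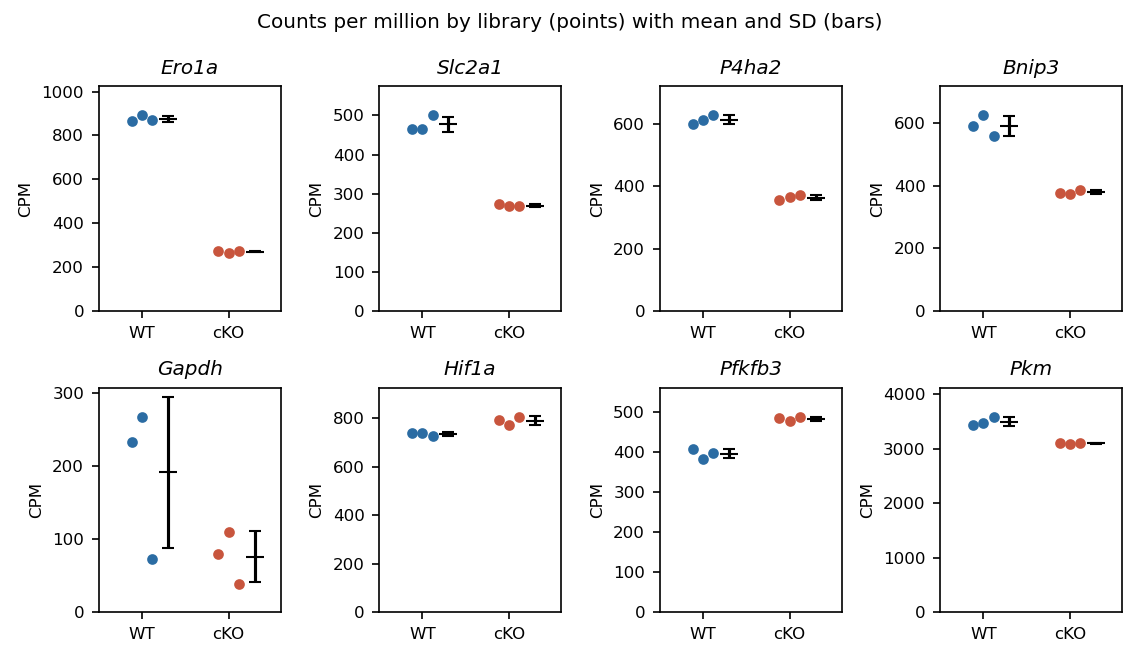
Each panel shows CPM on a linear axis from 0 for 1 gene, with points for the 3 libraries of each group and a bar for the mean and SD. The Ero1a points lie at 866 to 892 CPM in WT and at 266 to 273 CPM in cKO, Hif1a and Pfkfb3 are higher in cKO, and the 2 groups of Gapdh overlap.

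All 5 listed genes of glucose entry and the first steps of glycolysis fell at the transcript level. Slc2a1 (ENSMUSG00000028645, mm39 chr4:118965908-118995180, plus strand), the gene of the glucose transporter GLUT1, went from 465, 465 and 500.2 CPM to 273, 269 and 267 CPM, a log2 fold change of -0.82 ± 0.04. Slc2a3, the gene of the high-affinity transporter GLUT3, had the largest fall of all members, from 9.60, 8.73 and 9.40 CPM to 2.59, 2.41 and 2.36 CPM (-1.91 ± 0.15 in log2). Its level was low throughout, and per kilobase Slc2a3 gave 0.930% of the summed transcripts of both transporters in WT and 0.438% in cKO, so the sum followed Slc2a1. A pseudogene on the same strand within Slc2a3, Gm4482, had 18.6% as many counts.

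Gpi1, which converts glucose 6-phosphate to fructose 6-phosphate, had the highest level per kilobase of these genes and was measured at 1122, 1095 and 1203 CPM in WT and 701, 717 and 696 CPM in cKO. Its log2 fold change was -0.69 ± 0.04, and no libraries overlapped. The hexokinases, which trap glucose in the cell, fell as well, Hk1 by 0.64 and Hk2 by 0.40 on the log2 scale. The third isoenzyme, Hk3, is no member of the list and rose from 14.2, 13.7 and 14.8 CPM to 76.8, 88.9 and 86.0 CPM, a log2 fold change of 2.56 ± 0.07. Per kilobase, Hk3 gave 4.69% ± 0.0926 of hexokinase transcripts in WT and 29.4% ± 1.32 in cKO (SD, n = 3), while the sum of the 3 isoenzymes was 82.4 ± 2.63 and 77.6 ± 3.11 CPM per kilobase. The summed level in cKO was thus near that of WT, with another makeup. Hk3 is known from blood cells, including macrophages, whose summed markers were at 538% of the WT mean in cKO, and their part in the Hk3 value was not tested.

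The phosphofructokinase step divided by function. The 3 subunits of the enzyme that commits sugar to glycolysis fell, Pfkl by 0.36, Pfkm by 0.38 and Pfkp by 0.68 on the log2 scale. Pfkp had 219.7, 213 and 216 CPM in WT and 132, 132 and 140.0 CPM in cKO, with no overlap. The 2 members that make fructose 2,6-bisphosphate, the activator of phosphofructokinase, rose instead. Pfkfb3 (ENSMUSG00000026773, mm39 chr2:11476244-11558888, minus strand) went from 407, 384 and 398 CPM to 485, 478 and 488 CPM (0.29 ± 0.04 in log2). Pfkfb4 went from 11.5, 13.0 and 12.7 CPM to 18.8, 18.6 and 16.3 CPM (0.53 ± 0.09 in log2), the largest rise among the members. Neither overlapped between the groups, and per kilobase Pfkfb3 kept 91.8% of the PFKFB transcripts in both. The strand setting of the counting was not given in the sources used here, and genes on the opposite strand had counts equal to 53.3% of those of Pfkm (Senp1) and 30.3% of those of Pfkp (Pitrm1), so those values are less certain.

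In lower glycolysis, from aldolase to pyruvate kinase, 6 of 9 members fell, 1 rose and 2 did not pass. Pkm, pyruvate kinase, was second in level per kilobase only to Ldha and had 3443, 3467 and 3586 CPM in WT and 3108, 3097 and 3113 CPM in cKO. The groups did not overlap, yet the log2 fold change was only -0.17 ± 0.03. Tpi1, Pgk1, Pgam1 and Eno1, which carry triose phosphates to phosphoenolpyruvate, fell by 0.26, 0.42, 0.39 and 0.28 on the log2 scale, and Pgk1 is X-linked. Eno2, the neuronal enolase, had a log2 fold change of -0.20 ± 0.09 and did not pass.

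Aldolase did not follow its neighbours. Aldoa had 1243, 1316 and 1322 CPM in WT and 1286, 1319 and 1221 CPM in cKO, overlapping, with a log2 fold change of -0.02 ± 0.04. A second row of the table carries the name Aldoa (ENSMUSG00000114515), had 4 to 21 counts and was kept apart. Aldoc, an isoenzyme best known from brain, went from 25.3, 27.3 and 25.9 CPM to 30.1, 30.4 and 32.5 CPM (0.24 ± 0.07 in log2), without overlap. Without cKO replicate 3 the adjusted p of Aldoc was 0.0542 in edgeR. Per kilobase Aldoa gave 98.2% of aldolase transcripts in WT and 97.9% in cKO.

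Gapdh (ENSMUSG00000057666, mm39 chr6:125138678-125143430, minus strand), which oxidises glyceraldehyde 3-phosphate, had the largest standard error of all members. It had 233, 268 and 73.5 CPM in WT and 80.6, 109 and 39.4 CPM in cKO. The third library of each group was the lowest of its group, WT replicate 3 lay below cKO replicates 1 and 2, and the groups overlapped. The log2 fold change was -1.33 ± 0.34, and DESeq2 did not call it (adjusted p = 0.0980). Per kilobase its WT level was 46.3 CPM, below the 317 CPM of Tpi1 and the 641 CPM of Pgk1, which act just before and after it. Gapdh has many near-identical copies in the genome, between which reads can be split, and its value is uncertain. The 3 copies named in the table had 1.0% as many counts, and the opposite-strand gene Iffo1 had 13.2%. The 15 members from hexokinase to pyruvate kinase, without the PFKFB enzymes, summed to 13152 ± 406 CPM (SD) in WT and to 10662 ± 101 CPM (SD) in cKO, and without Gapdh the cKO sum was 81.7% of WT instead of 81.1%.

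At the fate of pyruvate all 3 members fell. Ldha, which reduces pyruvate to lactate and had the highest level per kilobase of all members, had 2822, 2964 and 3050.2 CPM in WT and 2472, 2423 and 2465 CPM in cKO (-0.26 ± 0.03 in log2). Slc16a3, the gene of the lactate exporter MCT4, went from 433, 429.7 and 458 CPM to 332, 330.0 and 338 CPM (-0.40 ± 0.04 in log2), and the opposite-strand neighbour Csnk1d had 49.7% as many counts. Pdk1, the kinase that shuts pyruvate dehydrogenase, fell by 0.37. None of the 3 overlapped between the groups. Of 12 other tested genes around pyruvate dehydrogenase, 5 rose (41.7%) and 2 fell (16.7%), beside 20.1% and 19.2% of all tested genes. Pdp1, the phosphatase that opposes the kinases, had a log2 fold change of 1.16 ± 0.07 and Pdha1, the X-linked catalytic subunit, 0.38 ± 0.04. The kinase genes Pdk4 and Pdk3 had -1.10 ± 0.09 and -0.34 ± 0.06. Over the 4 kinase genes the summed level went from 59.2 ± 2.14 to 45.3 ± 1.42 CPM per kilobase (SD, n = 3).

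**Figure D4:**
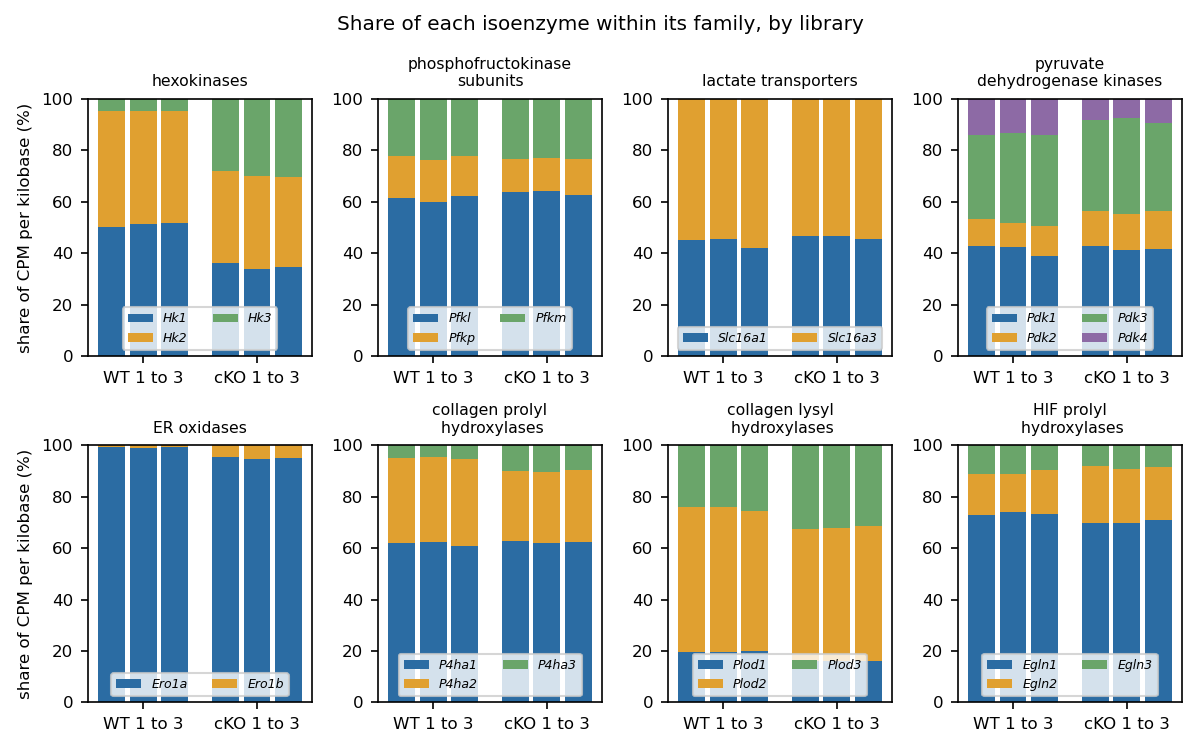
Each bar is a library and divides the summed CPM per kilobase of a family among its isoenzymes, in percent. Hk3 grows from 4.69% to 29.4% of the hexokinases and Ero1b from 0.789% to 4.90% of the ER oxidases, while phosphofructokinase subunits and lactate transporters keep nearly the same makeup.

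All 4 members that act at mitochondria fell. Bnip3 (ENSMUSG00000078566, mm39 chr7:138492565-138511248, minus strand), a receptor for the removal of mitochondria by autophagy, had the largest change here, from 589.7, 625 and 559.5 CPM in WT to 378, 375 and 386 CPM in cKO. The groups did not overlap, and the log2 fold change was -0.64 ± 0.04. Its relative Bnip3l had -0.44 ± 0.04, Fam162a, a mitochondrial protein induced by HIF, had -0.58 ± 0.05, and Higd1a, an inner membrane protein of the respiratory chain, had -0.20 ± 0.06. A named copy, Bnip3l-ps, had 6.93% as many counts as Bnip3l.

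The 3 secreted or cell surface members fell. Vegfa (ENSMUSG00000023951, mm39 chr17:46327919-46343295, minus strand), the main growth factor of blood vessels, went from 641, 609 and 631 CPM in WT to 462, 451 and 433 CPM in cKO, without overlap and with a log2 fold change of -0.48 ± 0.04. Car9, a carbonic anhydrase of the cell surface that buffers acid, had -0.42 ± 0.07, and Adm, the vessel-dilating peptide adrenomedullin, had -0.35 ± 0.04. Of 6 regulators 4 fell. Bhlhe40, a transcriptional repressor, had 372, 342 and 353 CPM in WT and 248, 258 and 237 CPM in cKO, with no overlap and a log2 fold change of -0.52 ± 0.04. Ndrg1, a stress-induced protein, had -0.37 ± 0.04, the histone demethylase gene Kdm3a -0.32 ± 0.05 and Mxi1, an antagonist of MYC, -0.29 ± 0.05. Ddit4, an inhibitor of mTOR signaling that also responds to other stresses, had -0.03 ± 0.04 with overlapping groups, and Ankrd37 had -0.31 ± 0.15, and neither passed. The opposite-strand gene Ufsp2 had 853% as many counts as Ankrd37, so its level is uncertain.

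Targets of HIF outside the list moved in both directions. Of 40 tested, 22 fell (55%) and 6 rose (15%), beside 19.2% and 20.1% of all tested genes. The 4 with the smallest p-values were Loxl2, Cxcr4, Gbe1 and Pgf. Loxl2, an enzyme of collagen cross-linking, went from 447, 456 and 468 CPM to 161, 154 and 146 CPM (-1.57 ± 0.04 in log2). Gbe1, the glycogen branching enzyme, went from 248, 258 and 255 CPM to 90.7, 77.8 and 87.5 CPM (-1.57 ± 0.05 in log2), both beside -1.69 for Ero1a. Pgf, placental growth factor and a relative of Vegfa, went from 20.3, 26.3 and 24.5 CPM to 1.12, 1.16 and 1.72 CPM (-4.14 ± 0.16 in log2). Cxcr4, a chemokine receptor that leukocytes also carry, rose from 8.13, 7.05 and 8.66 CPM to 53.0, 53.7 and 52.2 CPM (2.74 ± 0.08 in log2). These genes are targets in other settings, and the lists were drawn up with earlier results known.

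Of 14 other glycolytic isoenzymes and transporters tested, 4 fell (28.6%) and 4 rose (28.6%), beside 19.2% and 20.1% of all tested genes. Hk3 is given above, and Bsg, the chaperone of lactate transporters, fell from 1796, 1835 and 1717 CPM to 954, 948 and 941 CPM (-0.91 ± 0.03 in log2). Eno3 had a log2 fold change of -1.01 ± 0.14 and the lactate transporter gene Slc16a1 -0.28 ± 0.04. In the pentose phosphate pathway 2 of 8 fell (25%) and 1 rose (12.5%), which is near the background. H6pd, which supplies NADPH inside the ER, had -0.72 ± 0.05, Taldo1, transaldolase, 0.67 ± 0.06 and Tkt, transketolase, -0.26 ± 0.05, while G6pdx, the entry enzyme, had -0.10 ± 0.04 and did not pass. In glycogen metabolism 4 of 11 fell (36.4%) and 1 rose (9.09%), with Ppp1r3b, a glycogen-targeting subunit of protein phosphatase, at -0.85 ± 0.08, Pgm1 at -0.47 ± 0.04 and Ugp2 at -0.43 ± 0.05. Over all 119 tested genes of the pathway lists 49 fell (41.2%) and 22 rose (18.5%), with a median log2 fold change of -0.087 against -0.38 for the members.

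**Figure D5:**
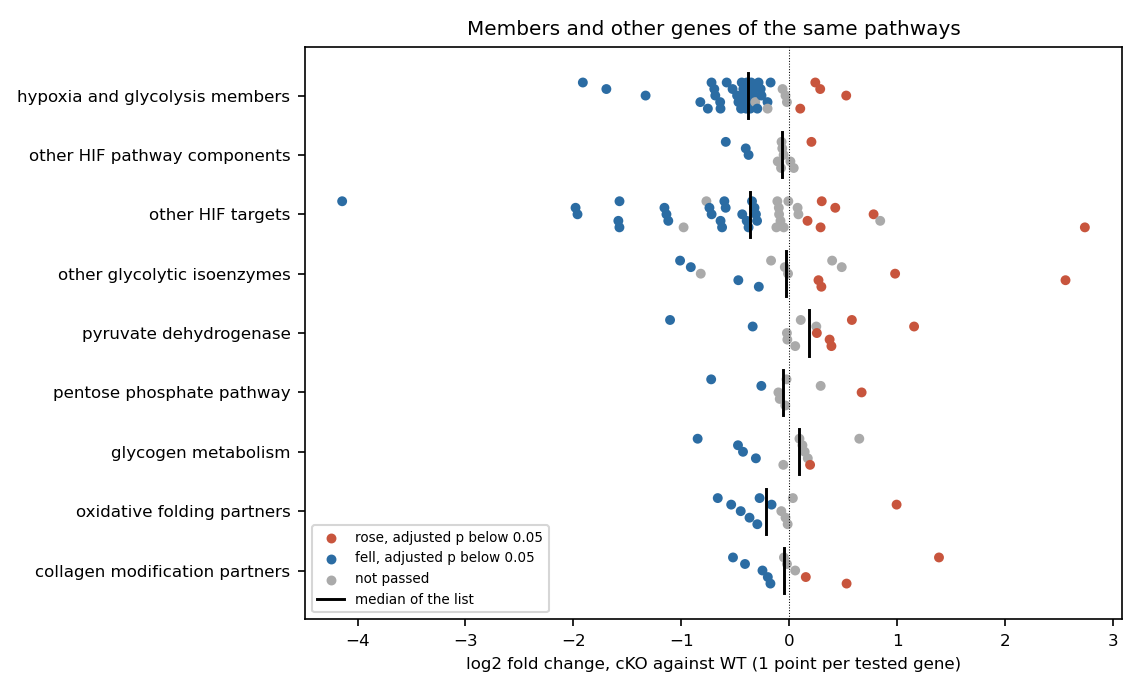
Each point is a tested gene, placed on the x axis at its log2 fold change of cKO against WT and colored by whether it passed an adjusted p below 0.05, with a black bar at the median of each list. The members have a median of -0.38, and other HIF targets spread from Pgf at -4.14 to Cxcr4 at 2.74.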

How the data were processed

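RNA from 3 WT and 3 cKO cultures was sequenced. Per the labels, the authors aligned reads with HISAT2 2.0.5 to GRCm39 (mm39) and counted them with featureCounts 1.55.0-p3. The study's methods name another featureCounts version and also RSEM, so the counting procedure is not settled. They deposited raw counts per gene without normalization, beside a gene length in bases. Small counts (1 to 10) were even in 63.4% to 65.7% of cases, as when both mates are counted. From the deposited counts, edgeR 4.0.16 in R 4.3.3 was run with filterByExpr, TMM scaling, non-robust glmQLFit and then glmQLFTest. Genotype was the single term, with Benjamini-Hochberg adjustment over 17146 genes. On simulated counts the procedure recovered 54 of 67 genes changed 1.5-fold, 59 of 67 changed 2-fold and 66 of 66 changed 4-fold. It also called 20 unchanged genes, and changes smaller than 1.5-fold were not simulated. The changed genes were drawn without the genes of lowest mean CPM, so recovery there was not measured. CPM are counts per 1000000 of the TMM-scaled library size. The totals of 39566835 to 49734046 counts limit precision mainly for the 2 members under 10 CPM in WT.

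The members and lists were chosen with earlier results of these data known. All members are given by role. Values in every library are given for Ero1a, Hif1a, Epas1 and, in each role, the gene of highest CPM and the largest rise and fall that passed, with a few other genes chosen after their values were seen (Slc2a1, P4ha2, Aldoa, Gsdmd). Outside this rule, values in every library are given for the pathway genes Ero1b, Hk3, Bsg, Loxl2, Gbe1, Pgf and Cxcr4. Counts in every library are given for the marker Fgf23. From each pathway list up to 4 genes that passed with the smallest p-values are named (1 such gene is not reported here), and a few others, namely Arnt, Egln2 and G6pdx, were chosen after their values were seen. Alternatives were other scalings, filters and tests (DESeq2 1.42.0, limma-voom with limma 3.58.1), halved counts, a block by replicate number and each library left out. Replicates differed by more than sampling noise, with a chi-square per gene of 4.87 to 14.2.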

Additional observations from a re-analysis of the deposited data

How the results depend on the processing

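Under 15 alternatives of scaling, filter, test, block and libraries, 38 of the 43 members kept their side of the threshold in each. All of those that passed kept their direction, while Aldoa, which did not pass, lay between -0.09 and 0.01. The exceptions were Hif1a, Aldoc, Gapdh, Eno2 and Ankrd37. Upper quartile scaling moved the median of the members to -0.45, left 2 members rising, with Hif1a at 0.03 and Aldoc at 0.17 no longer passing, and let Eno2 (-0.27) and Ankrd37 (-0.38) pass. It also moved the median of all genes to -0.061, the largest such shift, with 4294 genes falling and 2799 rising. With a log2 fold change of at least 1 required, 3 members fell and 0 rose, by construction of the limit. With at least 10 counts in every library, 15134 genes were tested and 522 fell by at least 1. That filter removes by construction genes with few counts in cKO, among them the Y-linked ones. Leaving out 1 library at a time gave 34 members falling each time, 2 to 4 rising, 2796 to 3375 genes falling, 2942 to 3407 rising and a members' median of -0.41 to -0.38. Without cKO replicate 3, 2 members rose. With DESeq2 Gapdh had a log2 fold change of -1.33 and did not pass.

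The replicate numbers did not pair the samples (correlations of same-numbered deviations of -0.0103 to 0.0023), and a fit with replicate number as a block left 34 members falling and 4 rising, with 3098 genes falling and 3298 rising overall. Members with few counts, Slc2a3 and Ankrd37, are those where depth limits precision most.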
